A study of Mus musculus with 5 samples.

Results

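Fatty acid oxidation is followed here through 9 genes, *Ppara*, *Ppargc1a*, *Cpt1a*, *Cpt2*, *Acadm*, *Acadl*, *Acadvl*, *Hadha* and *Ehhadh*, picked by symbol from the 21019 genes with values in the deposited table. All 9 were found, 1 gene ID for each. The 3 libraries labelled *Pfn1*-KO were set against 2 control libraries. Each library pooled the podocyte mRNA of 3 mice at 3 weeks of age. By the methods, *Pfn1* was fl/fl in the *Pfn1*-KO mice and +/+ in the controls. Both groups carried *Pod-Cre*, the *Rosa-Dtr* fl allele and the TRAP allele, in which Cre turns on GFP-tagged ribosomal protein L10a. A podocyte promoter drives *Pod-Cre*, so deletion of *Pfn1* and tagging of ribosomes both depend on podocyte Cre, and antibodies to GFP then pull down tagged ribosomes with their mRNA from kidney cortex (translating ribosome affinity purification, TRAP). The sample labels describe podocytes and a column kit only, with no treatment for controls and a podocyte-specific KO for the others. The libraries are called Pfn1-KO N2, Pfn1-KO N3, Pfn1-KO N4, WT N1 and WT N3 after their columns.

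Fatty acids are activated to acyl-CoA, carried into mitochondria as carnitine esters and shortened there by repeated rounds of dehydrogenation, hydration, a second oxidation and thiolysis. Very long and dicarboxylic chains are shortened in peroxisomes by a parallel set of enzymes. PPARA, a nuclear receptor that binds fatty acids, and its coactivator PGC-1α, the product of *Ppargc1a*, control many genes of both routes. In the kidney these genes are known above all from the proximal tubule, which runs on fatty acids, and podocytes carry mitochondria as well.

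The libraries differed in more than their labels. The targeted gene *Pfn1* measured 41.9, 17.2 and 27.8 FPKM in Pfn1-KO N2, N3 and N4, against 13.6 and 11.8 FPKM in the controls. As deposited, this direction goes against the label, but it did not pass the test (log2 fold change 1.05, SE 0.56, adjusted p = 0.123 from limma). It also lay under the median log2 fold change of all genes tested, 1.75, so relative to most genes *Pfn1* was not raised. FPKM are fragments scaled to gene length and to library size. Library sizes, worked out from the FPKM values, were 18186900 to 24871893 reads. Reads were recovered for 20414 genes. These genes held 95.5%, 71.7% and 95.0% of the library in Pfn1-KO N2, N3 and N4, against 45.0% and 41.1% in WT N1 and WT N3. Of the 21019 genes, 20980, 20435 and 20956 were above 0, against 6901 and 7528 in the controls. One rRNA gene, *CT010467.1*, stood at 346, 133787 and 194 FPKM in Pfn1-KO N2, N3 and N4, against 291221 and 311036 FPKM in WT N1 and WT N3. Mitochondrially encoded genes took 17.9%, 1.13% and 11.2% of summed FPKM, against 3.33% and 0.151%. The controls listed 0 for 53.1% and 56.4% of the 14631 genes tested. Of these genes, 10251 (70.1%) were higher in the libraries labelled *Pfn1*-KO by limma on log2(FPKM + 1), with a Benjamini-Hochberg adjusted p below 0.05, 312 (2.13%) were lower, and the median log2 fold change was 1.75. Every change, that of *Pfn1* included, is to be read against that shift. In bulk libraries of this kind, fewer cells of a type and less RNA per cell cannot be told apart.

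All 9 genes were higher in the libraries labelled *Pfn1*-KO and none was lower, beside 70.1% of all genes tested, and none was lower at an unadjusted p below 0.05 in limma. Their log2 fold changes ran from 2.56 for *Hadha* to 5.51 for *Cpt1a*, with a median of 3.17. In each of the 9, every library labelled *Pfn1*-KO lay above both controls, which held for 80.1% of all genes tested. After quantile normalization it still held for 9 of 9, beside 26.9% of all genes. The filter asked for 1 FPKM in 2 libraries. *Ppara*, *Acadm*, *Acadl*, *Acadvl* and *Hadha* met it in both controls, and all 5 were called higher, beside 37.5% of the 2817 genes that met it in both controls. The other 4, *Ppargc1a*, *Cpt1a*, *Cpt2* and *Ehhadh*, met it only with the help of the libraries labelled *Pfn1*-KO. None of the 9 was at 0 in both controls, which 41.0% of the genes tested were, while *Ppargc1a*, *Cpt1a* and *Cpt2* were at 0 in WT N1.

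**Figure D1:**
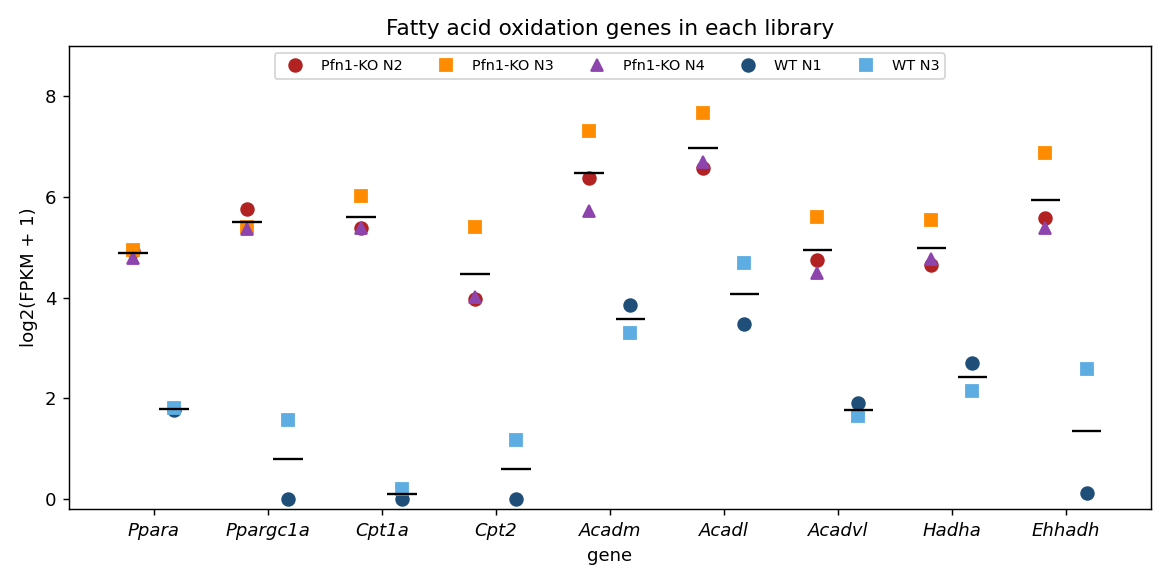
Levels of the 9 genes as log2(FPKM + 1) (y axis) in each library, with the 3 libraries labelled *Pfn1*-KO left and the 2 control libraries right of each gene's tick, 1 point per library, and black lines for group means on that scale. The groups do not overlap for any of the 9 genes, Pfn1-KO N3 (orange squares) is the highest point for 8 of them, and *Ppargc1a*, *Cpt1a* and *Cpt2* sit at 0 in WT N1.

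The 2 regulators come first. *Ppara* lies on chromosome 15 of GRCm38 from 85734983 to 85802819, on the plus strand, and encodes the fatty acid receptor. Its level was 29.3, 30.0 and 26.5 FPKM in Pfn1-KO N2, N3 and N4, against 2.41 and 2.51 FPKM in WT N1 and WT N3. This was the tightest of the 9 genes within both groups, with a mean of 28.6 ± 1.86 FPKM (SD, n = 3) in the libraries labelled *Pfn1*-KO, against 2.46 ± 0.0739 FPKM in the controls (SD, n = 2). The log2 fold change was 3.09 (SE 0.42, adjusted p = 0.00179 from limma).

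*Ppargc1a* lies on the minus strand of chromosome 5 from 51454250 to 51567726 and encodes PGC-1α, a coactivator of mitochondrial and fatty acid oxidation genes. It was at 53.3, 41.2 and 40.5 FPKM in Pfn1-KO N2, N3 and N4, against 0 and 1.98 FPKM in WT N1 and WT N3. The controls thus differed from each other: WT N3 had 298 reads and WT N1 none, where 3 reads, the limit a count of 0 allows, would be 0.0192 FPKM. The log2 fold change was 4.72 (SE 0.59, adjusted p = 0.00157 from limma), and was 3.94 without WT N1 and 5.51 without WT N3. *Ppargc1a* was the one gene of the 9 that was not highest in Pfn1-KO N3.

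Upstream sequences of both regulators and of *Acadm* are shown because each carries a match to a motif found in few windows. Each is the 250 bases before the RefSeq start on GRCm38.p6, written 5′ to 3′ on the gene's strand. Capitals mark GCATGCGC (the NRF1 core), AAGGTCA (part of TCAAGGTCA, the element of orphan receptors such as ERRα) and TGACGT, each on either strand. TGACGT is part of TGACGTCA, the cAMP response element. The windows are chr15:85735526-85735775 on the plus strand for *Ppara*, chr5:51567726-51567975 on the minus strand for *Ppargc1a* and chr3:153944644-153944893 on the minus strand for *Acadm*. That of *Ppara* lies inside the gene span given above, which is from GENCODE, so it is upstream of the RefSeq start only. The window of *Ehhadh*, which also matches TGACGT, is not shown.
Ppara: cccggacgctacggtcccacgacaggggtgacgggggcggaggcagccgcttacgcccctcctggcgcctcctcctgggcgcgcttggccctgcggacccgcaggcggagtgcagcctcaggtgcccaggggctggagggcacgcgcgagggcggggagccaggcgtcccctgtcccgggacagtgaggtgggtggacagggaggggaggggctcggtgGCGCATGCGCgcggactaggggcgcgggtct
Ppargc1a: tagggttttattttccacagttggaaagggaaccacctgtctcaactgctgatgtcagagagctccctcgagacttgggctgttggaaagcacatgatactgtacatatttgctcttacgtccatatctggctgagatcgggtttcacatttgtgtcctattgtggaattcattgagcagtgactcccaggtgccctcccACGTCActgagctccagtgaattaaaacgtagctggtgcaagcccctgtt
Acadm: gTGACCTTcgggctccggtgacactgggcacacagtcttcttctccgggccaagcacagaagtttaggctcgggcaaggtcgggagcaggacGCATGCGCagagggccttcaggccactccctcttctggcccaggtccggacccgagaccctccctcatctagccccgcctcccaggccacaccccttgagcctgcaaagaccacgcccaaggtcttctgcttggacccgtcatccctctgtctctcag
The NRF1 core is in the windows of *Ppara*, where its matches on the 2 strands overlap, and *Acadm*, and in 2.26% of 32851 RefSeq windows of this length. TGACGT is in those of *Ppargc1a* and *Ehhadh* (6.47% of all windows), and AAGGTCA is in that of *Acadm* alone among the 9 (4.08% of all windows). The PPARA response element, a direct repeat of AGGTCA with 1 free base between, is in none of the 9 windows and in 0.0335% of all. The whole ERRα element TCAAGGTCA (0.387% of all windows) and the whole cAMP response element TGACGTCA (1.55%) are also in none of the 9. These matches are letters in a window and not measured binding.

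The carnitine shuttle genes followed. *Cpt1a* (chromosome 19, 3322334 to 3385733, plus strand) encodes the outer membrane acyltransferase that sets the pace of fatty acid entry into mitochondria. It had 41.0, 64.2 and 41.0 FPKM in Pfn1-KO N2, N3 and N4, against 0 and 0.143 FPKM in WT N1 and WT N3. In reads this was 7242, 12202 and 5697, against 0 and 25, so *Cpt1a* was the least read of the 9 genes in the controls together. Its log2 fold change of 5.51 (SE 0.45, adjusted p = 0.00150 from limma) was the largest of the 9 as deposited, but without WT N3 *Ehhadh* (5.83) exceeded *Cpt1a* (5.60).

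*Cpt2* (chromosome 4, 107903981 to 107923610, minus strand) encodes the inner membrane enzyme that turns acylcarnitine back into acyl-CoA. Its level was 14.7, 41.5 and 15.1 FPKM in Pfn1-KO N2, N3 and N4, against 0 and 1.26 FPKM in WT N1 and WT N3. Pfn1-KO N3 stood apart here, at 2.78 times the mean of Pfn1-KO N2 and N4. The log2 fold change was 3.87 (SE 0.64, adjusted p = 0.00293 from limma), and was 3.28 without WT N1 and 4.46 without WT N3.

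The 3 acyl-CoA dehydrogenases open each round of the mitochondrial spiral, and differ in the chain lengths they prefer. *Acadm*, for medium chains (chromosome 3, 153922357 to 153944632, minus strand), was at 82.2, 157 and 51.6 FPKM in Pfn1-KO N2, N3 and N4, against 13.4 and 8.83 FPKM in WT N1 and WT N3. *Acadl*, for long chains (chromosome 1, 66830839 to 66863277, minus strand), was at 94.1, 203 and 102 FPKM, against 10.2 and 24.7 FPKM. These 2 genes were the most abundant of the 9 in all 5 libraries. They made up 42.1% to 48.2% of the summed FPKM of the 9 genes in the libraries labelled *Pfn1*-KO, against 67.0% and 68.6% in the controls. Their log2 fold changes were alike, 2.90 for *Acadm* (SE 0.65, adjusted p = 0.00862 from limma) and 2.89 for *Acadl* (SE 0.67, adjusted p = 0.00947 from limma), but that of *Acadl* was 2.30 without WT N1 and 3.49 without WT N3.

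*Acadvl*, for very long chains (chromosome 11, 70010183 to 70015411, minus strand), was the least abundant dehydrogenase of the 3, at 25.8, 47.6 and 21.6 FPKM in Pfn1-KO N2, N3 and N4, against 2.75 and 2.12 FPKM in WT N1 and WT N3. Its log2 fold change was 3.17 (SE 0.52, adjusted p = 0.00285 from limma). Exons of *Dvl2* on the other strand cover 42.9% of its exon bases, and no source used here says whether counting used strand, so reads there cannot be told apart. *Dvl2* itself was at 1.51 to 1.58 FPKM in the libraries labelled *Pfn1*-KO, against 0 in both controls.

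The 2 multifunctional enzymes carry out the middle steps, one in each organelle. *Hadha* (chromosome 5, 30118304 to 30155162, minus strand) encodes the alpha subunit of the mitochondrial trifunctional protein, and was at 23.9, 45.8 and 26.3 FPKM in Pfn1-KO N2, N3 and N4, against 5.53 and 3.43 FPKM in WT N1 and WT N3. Its log2 fold change of 2.56 (SE 0.52, adjusted p = 0.00601 from limma) was the smallest of the 9, but without WT N1 that of *Acadl* (2.30) was below that of *Hadha* (2.84). *Ehhadh* (chromosome 16, 21761287 to 21787807, minus strand), the peroxisomal bifunctional enzyme and a textbook PPARA target, was at 46.9, 117 and 40.9 FPKM, against 0.0849 and 5.01 FPKM. Its controls were far apart, with 6 reads in WT N1 and 341 in WT N3, and its log2 fold change of 4.60 had the largest standard error of the 9 (0.87, adjusted p = 0.00460 from limma). It was 3.36 without WT N1 and 5.83 without WT N3.

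The calls of most of these genes depended on how the libraries were scaled, while no direction did. After quantile normalization, which brings the median of all genes to -0.09, *Cpt1a* (3.80, SE 0.51, adjusted p = 0.0105 from limma) and *Ppargc1a* (3.07, SE 0.64, adjusted p = 0.0266) stayed higher. So 2 of 9 were called, beside 6.99% of all genes. Both had met the filter only with the help of the libraries labelled *Pfn1*-KO. The other 7 ran from 0.80 for *Hadha* to 2.79 for *Ehhadh*, with adjusted p from 0.0723 to 0.336. With median-ratio size factors 4 of 9 were called beside 45.5% of all genes, and these were *Ppara*, *Ppargc1a*, *Cpt1a* and *Cpt2*. Only *Ppara* among them had at least 1 FPKM in both controls. The median of all genes was then 1.19, and *Acadm* (1.14), *Acadl* (1.11) and *Hadha* (0.91) lay under it. On reads recovered from FPKM, limma-voom called *Cpt1a* only (9.31, SE 1.95, adjusted p = 0.0219), beside 38.8% of all genes. The median of all genes was 3.71 in that fit, against 1.46 for the 9 genes, of which 3 lay above it. All 9 were called with a pseudocount of 0.1 (69.5% of all genes) or 5 (65.1%), with no filter (56.8%), after rescaling to TPM (66.2%) and with array weights (83.1%). They were also called without WT N1 (58.4%), WT N3 (56.7%), Pfn1-KO N2 (57.3%), Pfn1-KO N3 (73.2%) or Pfn1-KO N4 (60.7%), and 6 of 6 were among genes above 0 in every library (53.5%). With the pseudocount of 0.1, however, the median was 3.57 for the 9 genes and 3.79 for all genes, and 4 of the 9 lay above that of all genes.

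A sum over nuclear protein-coding genes leaves rRNA and mitochondrial transcripts out of the scale. The 9 genes together took 2.16, 5.03 and 2.15 per 1000 of that sum in Pfn1-KO N2, N3 and N4, against 0.465 and 0.583 per 1000 in WT N1 and WT N3. On this scale every library labelled *Pfn1*-KO again lay above both controls for each of the 9, as for 70.1% of all genes tested. The margin differed between genes. The lowest library labelled *Pfn1*-KO was 1.68 times the highest control for *Acadm* and *Hadha* and 1.72 times for *Acadl*, but 4.73 times for *Ppara*, 10.3 times for *Ppargc1a* and 129 times for *Cpt1a*. Here 6 of 9 were called beside 55.5% of all genes, and *Acadm*, *Acadl* and *Hadha* were not (adjusted p = 0.0600, 0.0551 and 0.0548 from limma).

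**Figure D2:**
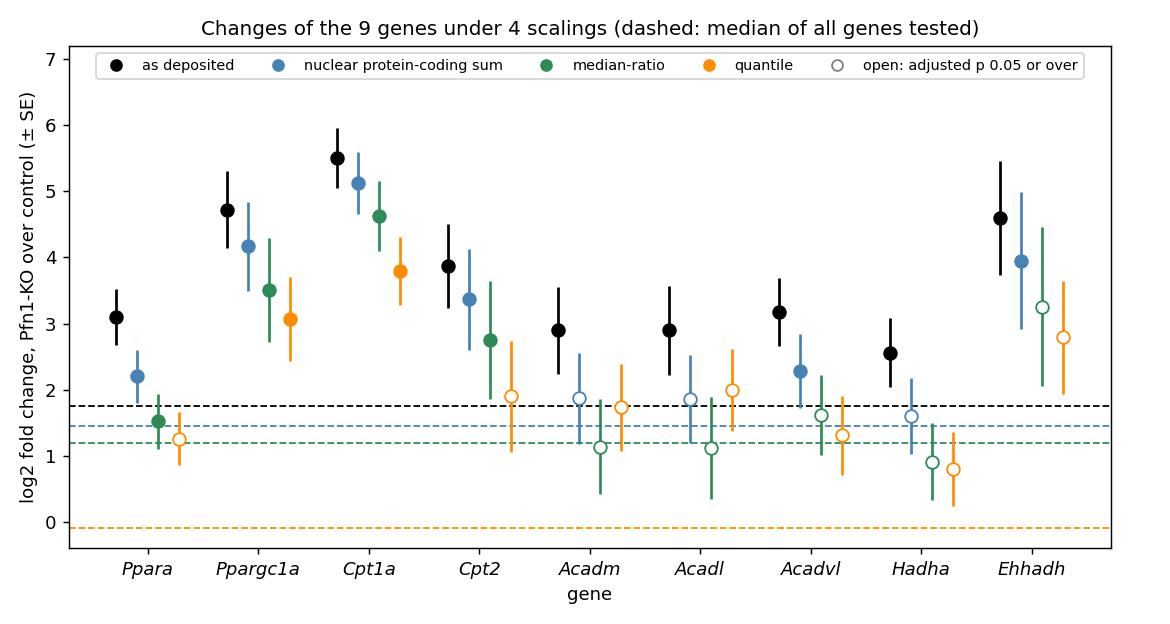
Log2 fold changes of the 9 genes, libraries labelled *Pfn1*-KO over control (y axis, bars are standard errors from limma), under 4 scalings, with filled points for an adjusted p under 0.05 and dashed lines in the same colours for the median of all genes tested. Every point is above 0, *Cpt1a* and *Ppargc1a* are filled throughout, and *Acadm*, *Acadl* and *Hadha* are filled only as deposited.

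The order of the 9 genes by FPKM, which is per length, was alike at its top in all libraries and differed lower down. *Acadl* and *Acadm* led in the 3 libraries labelled *Pfn1*-KO and in WT N3, and *Acadm* and *Acadl* in WT N1. In Pfn1-KO N2 and N4 *Ppargc1a*, *Ehhadh* and *Cpt1a* came next and *Cpt2* was last, while in Pfn1-KO N3 *Ppargc1a* and *Ppara* were last. *Cpt1a* was last in WT N3, and tied at 0 with *Ppargc1a* and *Cpt2* in WT N1. Within the libraries labelled *Pfn1*-KO, *Ppara*, *Acadvl* and *Hadha* had overlapping ranges and cannot be ordered.

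Pfn1-KO N3 held more of the enzymes than the other libraries of its label. For 8 of the 9 genes it was the highest of the 3, against 14.8% of all genes tested, and its median ratio to the mean of Pfn1-KO N2 and N4 was 2.01, against 0.56 for all genes. *Cpt2* (2.78), *Ehhadh* (2.66) and *Acadm* (2.35) had the highest ratios, and the regulators *Ppara* (1.07) and *Ppargc1a* (0.88) the lowest. The same held for other mitochondrial beta-oxidation genes, where Pfn1-KO N3 was highest for 19 of 21 (median ratio 1.90), but not for mitochondrially encoded genes (2 of 30, median ratio 0.24). It was highest for 10 of 10 podocyte markers (median ratio 1.99) and for 3 of 12 proximal tubule markers (median ratio 0.69). The high *CT010467.1* level of this library was given above, and its part in these ratios was not tested. Without Pfn1-KO N3 all 9 genes were still called higher, with log2 fold changes from 2.28 to 5.30.

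**Figure D3:**
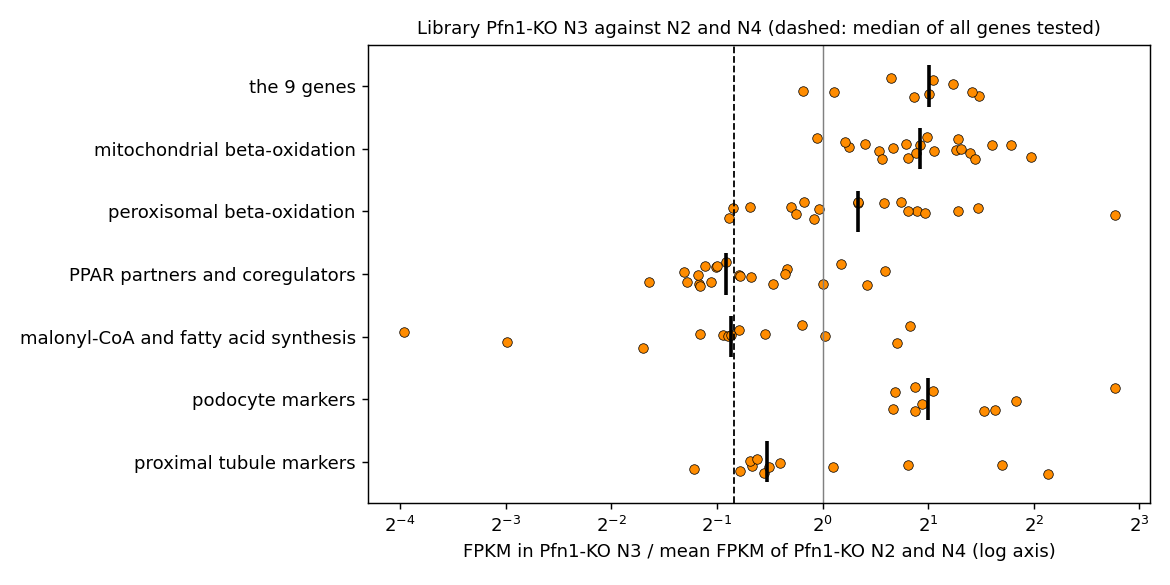
FPKM in Pfn1-KO N3 divided by the mean FPKM of Pfn1-KO N2 and N4 (x axis, log scale), 1 point per gene tested, with black lines for the median of each list, the dashed line for the median of all genes tested (0.56) and the grey line at equal levels. The 9 genes, mitochondrial beta-oxidation genes and podocyte markers lie mostly to the right of equality, and coregulators and most proximal tubule markers to the left.

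Markers of some kidney cell types were higher along with the 9 genes, beside the 70.1% of all genes called higher. Of 12 proximal tubule markers, 11 were higher and none lower, with summed levels of 2056 to 4662 FPKM in the libraries labelled *Pfn1*-KO, against 162 and 392 FPKM in the controls. With quantile normalization 6 of these stayed higher, and with median-ratio size factors 8 were higher and 1 lower. The one lower was *Slc7a13* (adjusted p = 0.0336 from limma), at 13.2, 17.9 and 20.4 FPKM in Pfn1-KO N2, N3 and N4, against 27.1 and 12.0 FPKM in WT N1 and WT N3. *Lrp2* and *Cubn*, the endocytic receptors of that segment, were at 0 in WT N3, and *Slc5a2*, *Slc22a8* and *Aqp1* were at 0 in WT N1. Other markers were present in both controls, such as *Kap* (332 and 123 FPKM in WT N1 and WT N3) and *Slc34a1* (13.6 and 7.66 FPKM). Of 10 podocyte markers 7 were higher, a share near that of all genes, with sums of 137 to 590 FPKM against 63.3 and 117 FPKM. *Wt1*, a transcription factor of podocytes, was at 0 in WT N1. Distal nephron markers (thick limb and distal convoluted segments) were higher in 7 of 7 cases (sums of 382 to 647 FPKM, against 7.17 and 7.85 FPKM). With median-ratio size factors 7 of these stayed higher (45.5% of all genes), and with quantile normalization 6 (6.99%). Podocyte markers called higher fell to 2 of 10 with median-ratio size factors and 1 with quantile normalization. In other lists 4 of 6 collecting duct, 1 of 6 macrophage and 1 of 3 red blood cell markers were higher. Of endothelial markers 5 of 7 and of mesangial and smooth muscle markers 4 of 5 were higher. The part of these cells in the levels of the 9 genes was not tested.

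Around the 9 genes, lists of 119 pathway genes were drawn up, of which 116 were in the table and 108 were tested. Of these, 93 were higher, none lower (1, *Ncor1*, at an unadjusted p below 0.05) and 15 neither, with a median log2 fold change of 2.97. Of the 23 with at least 1 FPKM in both controls, 15 were higher (65.2%), beside 37.5% of all such genes. At 0 in both controls were 28 of the 108 (25.9%), beside 41.0% of all genes tested. Fold limits given below for such genes hold for FPKM as deposited, without rescaling. With quantile normalization 20 were higher (6.99% of all genes) and 2 lower, and with median-ratio size factors 50 (45.5%) and 3. As deposited, 70.1% of all genes were higher.

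Uptake and activation genes rose with *Cpt1a*. Of 14 tested genes of the carnitine shuttle and acyl-CoA synthesis, 12 were higher, beside 70.1% of all genes. With median-ratio size factors 11 were higher (45.5% of all genes), and with quantile normalization 7 (6.99%). *Slc27a2*, a very long chain fatty acid transporter and acyl-CoA synthetase, was the most abundant, at 389, 215 and 278 FPKM in Pfn1-KO N2, N3 and N4, against 3.64 and 0 FPKM in WT N1 and WT N3 (log2 fold change 7.05, SE 0.78, adjusted p = 0.00150 from limma). *Acsl1*, a long chain acyl-CoA synthetase, was at 48.8, 83.5 and 35.1 FPKM, against 1.17 and 1.32 FPKM. *Slc22a5*, the carnitine transporter, and *Crot*, which makes carnitine esters in peroxisomes, were at 0 in both controls and at least 1436-fold and 2257-fold higher on average, against a floor of 3 reads over both controls. The fatty acid carrier gene *Cd36* had 12.9, 4.86 and 16.5 FPKM, against 10.7 and 0 FPKM, and was not called (adjusted p = 0.175). The muscle form *Cpt1b* and the brain form *Cpt1c* did not reach the filter.

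Of 21 other mitochondrial beta-oxidation genes, 19 were higher as deposited (median log2 fold change 3.04), beside 70.1% of all genes. Called higher were 6 with median-ratio size factors (45.5% of all genes) and 0 with quantile normalization (6.99%). In the quantile fit 6 had an unadjusted p below 0.05 in limma. *Acaa2*, a mitochondrial thiolase of the last step, was at 74.4, 194 and 38.6 FPKM, against 8.82 and 1.33 FPKM (log2 fold change 4.13, SE 0.92, adjusted p = 0.00812 from limma). *Etfa*, a subunit of the flavoprotein that takes electrons from the dehydrogenases, was at 66.0, 148 and 46.6 FPKM, against 4.32 and 3.41 FPKM. *Hadh* and *Acot13* had log2 fold changes of 4.15 and 4.32, and *Acat1* was at 65.5, 74.7 and 47.5 FPKM, against 8.45 and 0.606 FPKM.

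Of 18 peroxisomal genes, 16 were higher, beside 70.1% of all genes. With median-ratio size factors 9 were higher (45.5% of all genes), and with quantile normalization 6 (6.99%). *Phyh*, which oxidises phytanic acid, was at 121, 180 and 85.3 FPKM and at 0 in both controls, at least 3776-fold higher on FPKM as deposited. *Decr2* was likewise at 0 in both controls, and *Acaa1b* rose by a log2 fold change of 4.27. *Scp2*, a peroxisomal thiolase and lipid carrier, was at 118, 54.6 and 85.0 FPKM, against 48.5 and 37.9 FPKM, and was not called (log2 fold change 0.91, adjusted p = 0.197).

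The partners of PPARA and PGC-1α had the lowest median of the lists, 2.06, with 17 of 21 higher, beside 70.1% of all genes. With median-ratio size factors 7 were higher (45.5% of all genes) and 2 lower. With quantile normalization 1 was higher (6.99% of all genes) and 1 lower, with a median of -0.11. *Esrrg*, a nuclear receptor that PGC-1α coactivates, was at 26.5, 22.0 and 29.0 FPKM and at 0 in both controls, at least 2488-fold higher. *Rxra*, the partner of PPARA on DNA, was at 23.8, 10.7 and 24.3 FPKM, against 0 and 1.34 FPKM (log2 fold change 3.67, SE 0.58, adjusted p = 0.00265 from limma). *Nrip1* and *Gabpa* rose by log2 fold changes of 3.63 and 3.41. *Ppargc1b*, the paralog of *Ppargc1a*, was at 11.2, 17.8 and 12.5 FPKM, against 23.4 and 15.2 FPKM, with a log2 fold change of -0.45 (SE 0.49, adjusted p = 0.423 from limma), and was called lower with quantile normalization (-1.99, adjusted p = 0.0492) and with median-ratio size factors (adjusted p = 0.0179). *Ncor1*, a corepressor of nuclear receptors, was at 46.6, 24.8 and 76.7 FPKM, against 148 and 134 FPKM (log2 fold change -1.63, SE 0.67, adjusted p = 0.0610 from limma), and was called lower with median-ratio size factors (adjusted p = 0.00425). Neither contrast with *Ppargc1a* was tested.

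Other PPARA targets were higher in 11 of 14 cases, beside 70.1% of all genes. With median-ratio size factors 6 were higher (45.5% of all genes) and 1 lower, and with quantile normalization 2 (6.99%) and 1. The one called lower was *Mgll*, a monoacylglycerol lipase, at 10.7, 9.47 and 8.48 FPKM in Pfn1-KO N2, N3 and N4, against 8.77 and 22.2 FPKM in WT N1 and WT N3. Its log2 fold change was -2.20 with median-ratio size factors (adjusted p = 0.0268 from limma) and -2.15 with quantile normalization (adjusted p = 0.0283), and -0.52 as deposited (adjusted p = 0.392). *Cyp4a10* and *Cyp4a14*, ω-hydroxylases of fatty acids, were at 27.9 to 61.0 and 27.0 to 84.7 FPKM in the libraries labelled *Pfn1*-KO, against 0 in both controls for *Cyp4a10* and 3.71 and 0 FPKM for *Cyp4a14*. *Vnn1* was at 10.8 to 12.1 FPKM against 0 in both controls, and *Txnip* rose by a log2 fold change of 3.73. *Plin2*, which coats lipid droplets, was at 9.86, 5.60 and 14.2 FPKM, against 17.9 and 0 FPKM, and was not called (adjusted p = 0.358). Ketone body genes were higher in 6 of 7 cases, beside 70.1% of all genes. Of these 7, 3 were higher with median-ratio size factors (45.5% of all genes) and 2 with quantile normalization (6.99%). The most abundant was *Oxct1*, which activates acetoacetate, at 228, 392 and 225 FPKM, against 31.1 and 26.1 FPKM.

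Genes of the opposite pathway were higher as well. Of 13 genes of malonyl-CoA and fatty acid synthesis, 12 were higher (median 2.71), beside 70.1% of all genes. With median-ratio size factors 8 were higher (45.5% of all genes), and with quantile normalization 2 (6.99%). *Fasn*, the fatty acid synthase, was at 12.8, 9.54 and 22.6 FPKM and at 0 in both controls, at least 2545-fold higher. *Me1*, malic enzyme, was at 61.4, 65.3 and 87.6 FPKM, against 2.40 and 0 FPKM. *Scd1*, which desaturates fatty acids, was at 43.5, 3.64 and 70.2 FPKM, against 0.328 and 0 FPKM, and was low in Pfn1-KO N3. *Acly* and *Scd2* rose by log2 fold changes of 2.52 and 3.32. In Pfn1-KO N3 this list ran at a median ratio of 0.55 to the other 2 libraries of its label, against 1.90 for mitochondrial beta-oxidation.

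**Figure D4:**
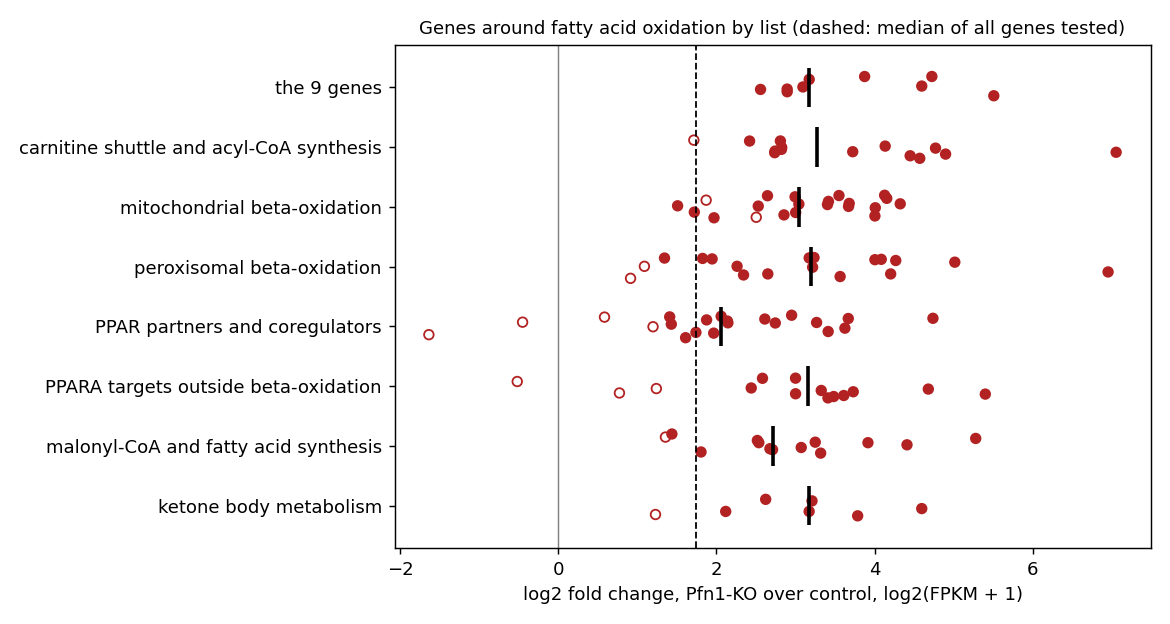
Log2 fold changes, libraries labelled *Pfn1*-KO over control (x axis), of the 9 genes and of the pathway genes tested, 1 point per gene, filled where limma gave an adjusted p below 0.05, with black lines for list medians and the dashed line for the median of all genes tested (1.75). List medians run from 2.06 for PPAR partners and coregulators to 3.27 for the carnitine shuttle, and the points left of 0 are *Ncor1*, *Ppargc1b* and *Mgll*.

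The genes nearest to the mean pattern of the 9 were found by the root mean square distance of log2(FPKM + 1), centred on each gene's mean over the 5 libraries. Among protein-coding genes outside the lists these were *Anapc2* (distance 0.13), *Shmt1* (0.13), *Usp5* (0.15), *Pak2* (0.15) and *Apeh* (0.16). Of the 9 genes themselves, *Cpt2* (0.30) and *Acadvl* (0.38) were nearest to the mean pattern and *Cpt1a* (0.90) was farthest from it. With 5 libraries in 2 groups this likeness rests mostly on the difference between the groups.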

How the data were processed

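TRAP RNA from 3 libraries labelled *Pfn1*-KO and 2 control libraries was analysed. Per the methods and the submitters' processing notes, the authors used fastp 0.20 for trimming, STAR 2.7.9 for alignment (GRCm38.p6) and featureCounts 2.0.0 for counting, left out genes with few reads and deposited FPKM. The methods name TPM, but column sums differ between libraries. Of 23010 rows, 1991 hold no value and were not used. Column names give the group and not the replicate number of the labels. No source used here says whether litters or days were shared, so p-values measure the spread between these pools.

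Names, places and exon lengths came from GENCODE vM21, which matched 20985 gene IDs, and promoter sequences from RefSeq (GRCm38.p6), which matched all 9 genes. The size of each library was fitted from FPKM and exon length. FPKM times length times this size came out whole, to a tolerance of 0.02, for 20414 genes, and served as reads. Limits for a count of 0 cover counting error only.

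A gene needed 1 FPKM or more in 2 or more libraries to be tested. Such genes were tested with limma 3.58.1 (R 4.3.3) on log2(FPKM + 1), a pseudocount of 1, a mean-variance trend, two-sided, adjusted by Benjamini-Hochberg over all genes tested. Fold changes on this scale understate low genes. A permutation test of 3 against 2 cannot go below p = 0.1, so none is given. The fits were tested on simulated data built from the libraries labelled *Pfn1*-KO. Those data held no shift over all genes, so they do not cover the shift seen here. The 9 genes and all lists were chosen with earlier results of these data known. Named genes are the 9, for each pathway list the most changed (4 at most) and the most abundant (3 at most), any called lower, defining markers, and 5 genes of like pattern. Some genes that the rule names are not reported here. *Cd36*, *Cpt1b*, *Cpt1c*, *Plin2*, *Mgll*, *Dvl2*, *Slc7a13*, *Slc34a1* and *Kap* were named after their values were seen. Python 3.11.15, pandas 2.3.3, scipy 1.17.1 and matplotlib 3.10.9 made the tables and figures.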

Additional observations from a re-analysis of the deposited data

How the results depend on the processing

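All 9 genes were called higher with a pseudocount of 0.1 or 5, no filter, rescaling to TPM and array weights, and without each library in turn (9 in every case). Among genes above 0 in every library, 6 of the 9 could be tested and 6 were called. No alternative reversed the direction of any of the 9. Called higher were 4 of the 9 genes with median-ratio size factors, 2 with quantile normalization and 1 with limma-voom on recovered reads. Of the 5 genes with at least 1 FPKM in both controls, only *Ppara* was among these calls, with median-ratio size factors. Pathway genes called higher and lower were 50 and 3 with median-ratio size factors, 20 and 2 with quantile normalization and 34 and 4 with limma-voom. Among genes above 0 in every library 34 were higher, and 2 were lower after rescaling to nuclear protein-coding genes and 1 with array weights. Of all genes, 5545 were higher and 929 lower with median-ratio size factors, 1023 and 1806 with quantile normalization, and 5520 and 760 with limma-voom, so that calls as higher were 85.7%, 36.2% and 87.9% of calls, against 97.0% as deposited. There were 2459 higher among genes above 0 in every library, 100 lower after rescaling to TPM and 634 lower after rescaling to nuclear protein-coding genes. Leaving out 1 library gave 6746 to 10623 higher and 174 to 455 lower, and the lowest counts of both came without Pfn1-KO N2. The cause of these differences was not tested.

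No paired analysis was possible because the column names carry no replicate number of the labels, so the fit with a replicate block was not run. *Cpt1a* had 25 reads in WT N3 and *Ehhadh* 6 in WT N1, although the control libraries were of a size with the others. These low counts, and the distance between the 2 controls for *Ehhadh* (6 and 341 reads), limit how well those fold changes are known.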
